A study of Drosophila melanogaster with 6 samples.

Results

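The serine, leucine and selenocysteine tRNAs form the class of nuclear tRNAs with a long variable arm, an extra hairpin between the anticodon arm and the T arm. Its members were all listed tRNA genes whose name ends in Ser, Leu or SeC, and there were 44 of them among 297 listed genes. They comprised 20 serine genes (8 Ser-AGA, 4 Ser-CGA, 6 Ser-GCT and 2 Ser-TGA), 23 leucine genes (5 Leu-AAG, 4 Leu-CAA, 8 Leu-CAG, 4 Leu-TAA and 2 Leu-TAG) and the 1 selenocysteine gene, SeC-TCA. The gene lengths in RefSeq bore the class name out: all 43 members with a length measured 80 to 127 nt (median 82), and 11 of 245 other tRNA genes exceeded 79 nt. The Leu-CAA genes were the longest, at 121 to 127 nt, because they hold an intron.

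The libraries hold small RNAs of 25 to 70 nt from whole bodies without testis of adult male Drosophila melanogaster in the w1118 strain. Flies were either heterozygous for a Dnmt2 mutation (+/Dnmt2 mutant) or carried it on both chromosomes (Dnmt2 mutant/Dnmt2 mutant), so every group carried at least 1 mutant copy. The series title calls the first genotype wild type, and the labels' genotype was followed. Each genotype was sampled as control at 10 days, after heat shock (37 °C for 1 h, then 5 h at room temperature, at 10 days) and after heat shock with 2 days of recovery (at 12 days), with 1 library for each of the 6 groups. Recovery and the greater age cannot be told apart, and since the labels do not tie the libraries to separate fly cultures, the spread behind every p-value may be technical. In whole bodies, fewer cells of a type and less RNA per cell cannot be told apart either.

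In cells, the long variable arm is how seryl-tRNA synthetase recognises its tRNAs. The same enzyme charges the selenocysteine tRNA with serine, which is then converted to selenocysteine and inserted at particular UGA codons, so this tRNA also has an unusually long arm and acceptor stem. tRNAs can be cut in the anticodon loop into a 5′ and a 3′ piece, in many animals more so under stress, and Dnmt2 methylates a cytosine of that loop in Asp-GTC, Gly-GCC and Val-AAC. None of the long-arm tRNAs is an established substrate of the enzyme in flies.

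Long-arm fragments are shown here as the files list them, with the genes they come from, rebuilt by joining overlapping reads. In the gene lines and in the 3′ fragments, capitals mark bases 50 and 67, which the reads often did not match, and in Ser-AGA also base 77, at which gene copies differ (A77G). Positions in these genes are counted from 1 at the 5′ end of the gene.
Ser-AGA gene, first form: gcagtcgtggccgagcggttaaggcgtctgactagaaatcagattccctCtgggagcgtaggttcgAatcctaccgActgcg
Ser-AGA gene, second form: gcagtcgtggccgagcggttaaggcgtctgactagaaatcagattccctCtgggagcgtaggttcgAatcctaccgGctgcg
Ser-AGA 3′ fragment with C50T and A67T: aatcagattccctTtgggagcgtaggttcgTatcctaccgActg
Ser-AGA 3′ fragment with C50T and A67G: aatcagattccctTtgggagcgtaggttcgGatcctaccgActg
Ser-AGA 3′ fragment with C50T: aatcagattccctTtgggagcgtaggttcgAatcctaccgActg
Ser-GCT gene: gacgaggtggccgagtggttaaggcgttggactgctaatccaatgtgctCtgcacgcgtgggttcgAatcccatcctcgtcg
Ser-GCT 3′ fragment: cacgcgtgggttcgAatcccatcctcgtcg
The first form of the Ser-AGA gene lay on chromosomes 2L, 3L and X, the second on X, and Ser-GCT on 3R. For contrast, a rare 5′ fragment of Ser-AGA is shown with its last 2 bases, the entry to the anticodon loop, in capitals, and an internal Leu-TAA fragment from 3R with its last 3 bases, the entry to the T loop, in capitals.
Ser-AGA 5′ fragment: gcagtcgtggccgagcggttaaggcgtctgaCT
Leu-TAA internal fragment: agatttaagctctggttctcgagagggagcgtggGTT

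Long-arm tRNAs gave few fragments for their number of genes. Counting each read once, the tRNA lists of heterozygote control, heat shock and recovery held 15337, 46061 and 28523 reads, and those of mutant control, heat shock and recovery 67478, 37464 and 5113. Of these, 181, 417, 374, 555, 198 and 48 reads in the same order were of long-arm tRNAs, or 1.18%, 0.905%, 1.31%, 0.822%, 0.529% and 0.939%. Every value by library below keeps this order of the 6 libraries. The share lay between 0.529% and 1.31% throughout, and the highest and the lowest share were those of heterozygote recovery and mutant heat shock. In each condition the mutant share was below the heterozygote share. The ratios were 0.697 (interval 0.588 to 0.829) in control, 0.584 (0.490 to 0.693) after heat shock and 0.716 (0.519 to 0.969) in recovery. Every interval lay below equality, but these intervals cover counting error only and compare single libraries. Whether the share differs between genotypes was not tested. The lists hold sequences of 30 to 51 nt that matched nuclear tRNA genes, so their totals are part of each library and not its sequencing depth.

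Per gene copy, the 44 members gave 2.68, 2.06, 2.98, 1.87, 1.2 and 2.13 reads per gene in every 10000 tRNA reads. The 253 other genes gave 39 to 39.3. The mean log2 ratio of members to others was -4.24 ± 0.46 (SD, n = 6 libraries), an 18.9-fold lower yield, and it was lower in 6 of 6 libraries (exact paired sign-flip permutation test, 2-sided, p = 0.03125, the smallest 6 libraries allow). Gly-GCC, with a median of 383 reads per gene, weighs heavily on the comparison group, and without it the log2 ratio was -3.29. As single isoacceptors (amino acid and anticodon), the medians were closer: the 9 long-arm entries, with Ser-AGA and Ser-CGA combined, had a median of 0.595, against 2.06 over the 35 others, and 6 of 9 against 11 of 35 lay below 1.

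SeC-TCA stood far above the other members. Its single gene gave 31.3, 35.2, 58.2, 27.3, 8.27 and 19.6 reads per 10000 tRNA reads, a median of 29.3, and took rank 6 of 44 isoacceptor entries, next to Asp-GTC with a median of 22.0 per gene. In reads, this was 48, 162, 166, 184, 31 and 10, and the 601 SeC reads made up 33.9% of all 1773 long-arm reads. Heterozygote recovery was the highest library and mutant heat shock the lowest.

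Among the serine tRNAs, Ser-AGA and Ser-CGA, which share reads, gave 4.40, 2.97, 3.74, 3.78, 2.47 and 3.42 reads per gene, a narrow range in which the genotypes overlapped, and took rank 16. Ser-AGA had 517 reads (46, 92, 82, 204, 78 and 15), a further 284 reads matched both isoacceptors, and 10 matched Ser-CGA alone. The 2 Ser-TGA genes had a median of 1.39 reads per gene (range 0.148 to 2.93, 37 reads in all), and the 6 Ser-GCT genes 0.561 (0.326 to 1.85, 84 reads). These lower serine isoacceptors could not be ordered, since their ranges overlapped across most of their length.

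The leucine tRNAs gave few fragments per gene, in the range of Ser-GCT. The medians per gene were 0.727 for Leu-CAG, 0.595 for Leu-CAA, 0.572 for Leu-TAG, 0.498 for Leu-AAG and 0.190 for Leu-TAA, and the ranges of neighbours in this order overlapped. They rest on 94, 40, 23, 39 and 44 reads over all libraries. Leu-TAA was uneven, with 1, 4, 15, 22, 2 and 0 reads, and Leu-TAG was listed with 3, 13, 5, 0, 2 and 0. As 2 sums, serine genes gave more per copy than leucine genes, by a mean log2 ratio of 1.97 ± 0.63 (SD, n = 6 libraries) or 3.93-fold, in 6 of 6 libraries (exact paired sign-flip permutation test, 2-sided, p = 0.03125).

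**Figure D1:**
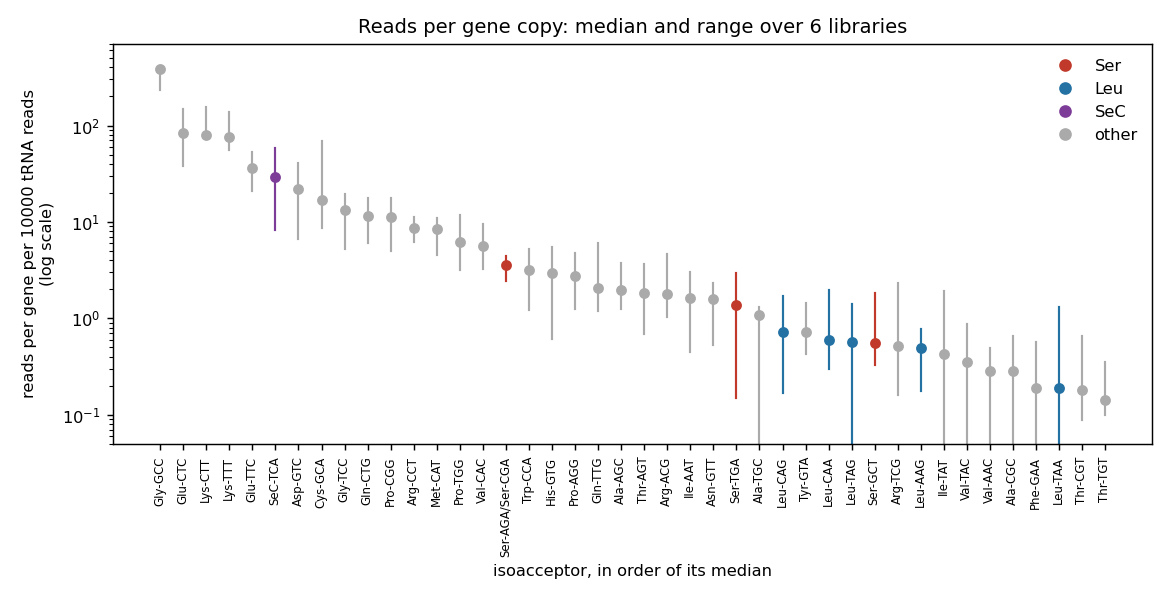
Reads per gene copy and 10000 tRNA reads (log scale) for each isoacceptor, as the median (point) and range (line) over 6 libraries. Isoacceptors are in order of the median. Lines that reach the lower edge run to 0 or to a value below the edge, and 2 other isoacceptors with a median of 0 are not drawn. SeC-TCA stands at rank 6 with a median of 29.3, Ser-AGA with Ser-CGA at rank 16 with 3.58, and 6 of the 9 long-arm entries lie below 1.

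The long-arm class also differed in the side of the tRNA that was recovered. Reads that began at base 1 of a tRNA, called 5′ fragments, made up 18.8%, 28.4%, 22.8%, 19.0%, 19.8% and 18.8% of placed long-arm reads, against 87.8% to 93.6% in the other tRNAs of the same libraries. The means were 21.2% ± 3.81 and 90.8% ± 2.47 (SD, n = 6 libraries), with the long-arm share lower by 69.6 percentage points in 6 of 6 libraries (exact paired sign-flip permutation test, 2-sided, p = 0.03125). Fragments that end exactly at the last annotated base made up 26.4% ± 10.2 of long-arm reads and 5.89% ± 1.99 of the others, higher by 20.5 points in 6 of 6 libraries with the same exact p. When ends within 3 nt of the last base counted as 3′, this difference was 67.9 points. With this allowance, 3′ reads exceeded 50% in 8 of 10 long-arm isoacceptors with at least 20 reads and in 10 of 29 others, where the background over all 39 was 46.2%. The Ser-CGA entry here and below holds the 291 reads placed on Ser-CGA genes, and all but 10 of them also match Ser-AGA genes, so it is no value of Ser-CGA alone. The Ser-AGA entry leaves these reads out, so it is no value of all 8 Ser-AGA genes either.

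Serine tRNAs were recovered almost wholly as 3′ fragments. Within 3 nt, these were 91.4%, 97.9%, 91.1%, 95.1%, 93.8% and 88.0% of serine reads, 878 of 932 over all libraries, with no gap between the genotypes. By isoacceptor the share ran from 81.1% in Ser-TGA to 96.9% in the Ser-CGA entry with its shared reads. Ser-AGA had 22 5′ reads among 520, and its commonest 5′ fragment, the 33-nt sequence shown above, was read 11 times.

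Leucine tRNAs were more mixed. Their 3′ share was 78.6%, 90.6%, 64%, 43.2%, 89.2% and 84.6%, on 28, 64, 50, 44, 37 and 13 reads. Leu-AAG, Leu-CAG and Leu-TAG were 3′ in 94.9%, 93.6% and 91.3% of reads, whereas Leu-CAA was 5′ in 35.1% of 37 placed reads. Leu-TAA was 3′ in 14.0% of 43 placed reads and otherwise mostly internal, and it supplied 15 of the leucine reads in heterozygote recovery and 22 in mutant control, the libraries with the lowest 3′ shares. The 5′ share did not pass a test between serine and leucine (6.53% ± 3.57 against 8.60% ± 3.28, difference -2.07 points, exact sign-flip permutation p = 0.1875, n = 6 libraries).

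SeC-TCA was the only long-arm isoacceptor with over 50% 5′ reads among the 10 compared. Its 5′ share was 43.8% (21 of 48), 69.1% (112 of 162), 41.6% (69 of 166), 47.3% (87 of 184), 93.5% (29 of 31) and 50% (5 of 10). Both heat shock libraries had the highest shares of their genotype. The 5′ share of the class as a whole did not pass a test between genotypes: mutant minus heterozygote was 0.169, -8.57 and -4.04 points in control, heat shock and recovery (exact sign-flip permutation p = 0.5, smallest possible 0.25, n = 3 pairs).

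**Figure D2:**
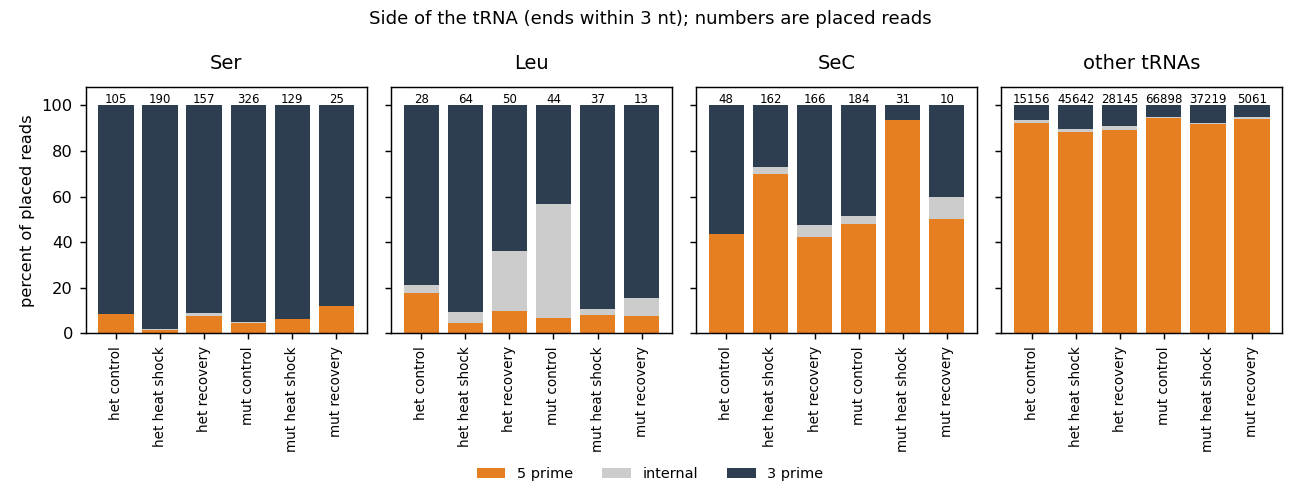
Percent of placed reads by side of the tRNA, with ends allowed within 3 nt, for serine, leucine, selenocysteine and all other tRNAs in each library; numbers above the bars are reads. Serine bars are 88.0% to 97.9% 3′, the other tRNAs are mostly 5′, and SeC reads split between the sides, with 29 of 31 reads 5′ in mutant heat shock.

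The ends of the fragments were compared with the anticodon placed at positions 34 to 36 and its loop at 32 to 38. In Ser-AGA and Ser-CGA, 724 of 779 fragments that did not start at the first base began at positions 35 to 40 (92.9%, 95% Wilson interval 90.9 to 94.5%). Position 37, the base after the anticodon, was the first base of 322 (41.3%), and by library this share stayed between 35.1% and 47.5%. The Ser-AGA 3′ fragment shown above begins there. Most of these fragments stopped short of the gene's end: 317 of 497 fragments in the Ser-AGA entry ended 2 bases before the last annotated base, 115 ended 1 base before it, and 65 reached it. These counts are those of the first gene form, since reads shared with Ser-CGA were placed on Ser-CGA genes.

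The other serine isoacceptors began nearby, with a second site in Ser-GCT. Position 38 was the commonest first base in Ser-TGA (13 of 31) and was used by 21 of 72 in Ser-GCT. A further 22 Ser-GCT fragments began at position 53, inside the variable arm and past base 50, and these were the 30-nt sequence shown above. It was read 2, 4, 9, 2, 5 and 0 times. Unlike Ser-AGA, 65 of 72 Ser-GCT and 22 of 31 Ser-TGA fragments reached the last annotated base.

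Leucine cuts were spread more widely, with 88 of 193 fragments beginning at positions 35 to 40. Leu-CAG began at position 44 in 21 of 90, at 38 in 14, at 39 in 11 and at 51 in 11. Leu-AAG began at 38 in 13 of 39. In Leu-TAA, 19 of 42 fragments began at position 29, in the anticodon stem, and 31 of 42 ended 18 to 20 bases before the last base, at the entry to the T loop. In mutant control, all 22 Leu-TAA reads ended there. The 37-nt fragment shown above, read 0, 0, 3, 6, 1 and 0 times, is of this kind.

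SeC-TCA had 2 separate sites. Of its 323 5′ fragments, 313 ended at positions 34 to 36, within the anticodon (96.9%), and 200 of them at position 35. Of the 275 other fragments, 243 began at positions 48 to 51, in the variable arm (88.4%, Wilson interval 84.0 to 91.6%), and 171 began at position 49. The stretch from the anticodon to the variable arm was thus in neither of the main SeC fragments. The most abundant single long-arm sequence was the 37-nt SeC 5′ fragment, with 8, 71, 36, 57, 18 and 3 reads. The commonest of the others, 35 nt long and 2 bases short of the annotated end, was read 9, 8, 39, 21, 1 and 0 times.

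**Figure D3:**
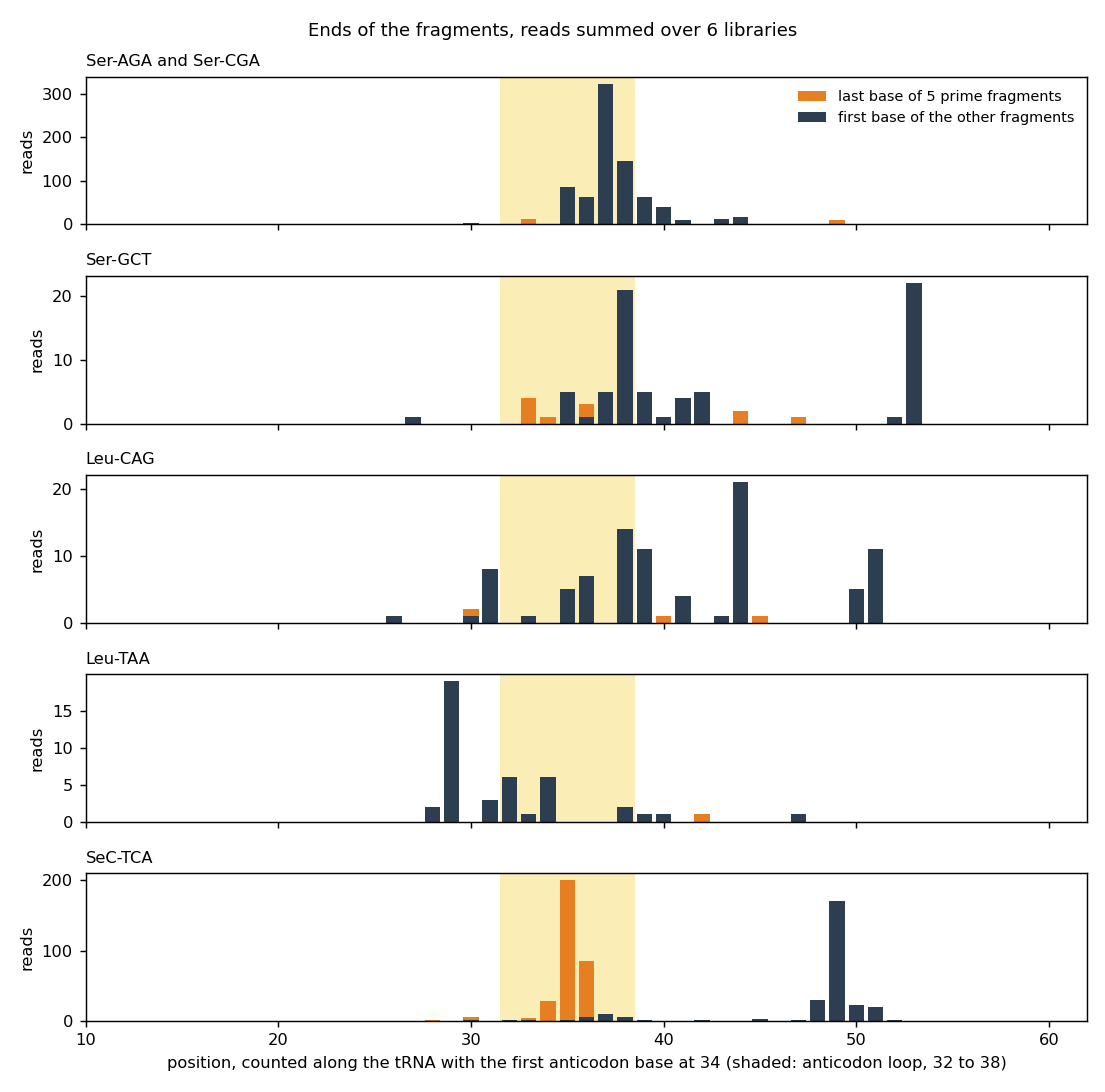
Reads, summed over 6 libraries, by the last base of 5′ fragments (orange) and the first base of the other fragments (dark), along the tRNA with the anticodon's first base at 34; the anticodon loop is shaded. Ser-AGA with Ser-CGA peaks at 37, Ser-GCT at 38 and 53, Leu-TAA at 29, and SeC-TCA ends at 35 on the 5′ side and begins at 49 on the other.

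The fragments were also longer than those of other tRNAs. Serine reads had a median of 44 nt (quartiles 44 and 45), and this median was 44 in each of the 6 libraries. Leucine reads had a median of 41 nt, SeC reads 37 nt and all other tRNAs 33 nt. Reads of 36 nt or less made up 22.8% of long-arm and 87.6% of other reads. These pooled values mix the sides, which differ between the classes. Among 5′ fragments the shares were 18.2% and 93.4%, with medians of 37 and 33 nt. SeC-TCA supplied 323 of these 390 long-arm fragments. Its share was 11.8%, against 54.2% of 48 serine and 36.8% of 19 leucine 5′ fragments. Among fragments that are not 5′ the pooled shares were 24.1% and 27.2%, with medians of 44 and 37 nt. The long-arm value mixed 4.2% in serine, 25.5% in leucine and 86.9% in SeC-TCA. The SeC-TCA fragments that are not 5′ had a median of 35 nt. Reads of 51 nt, the longest listed, were rarer in the long-arm class, at 0.439% ± 0.525 against 4.29% ± 1.29 (SD, n = 6 libraries), lower by 3.85 points in 6 of 6 libraries (exact paired sign-flip permutation p = 0.03125). Of the 7505 such reads of other tRNAs, 7409 were 5′ fragments. Among 5′ fragments the shares over all libraries were 0.256% and 4.12%. The direction was opposite among fragments that are not 5′, at 0.728% (10 of 1373) and 0.066% (11 of 16662). Among 5′ fragments, the share that ended in the anticodon loop did not pass the test, at 85.4% ± 8.57 against 92.0% ± 2.58 (exact p = 0.15625), but without 51-nt reads the difference was -10.9 points with an exact permutation p of 0.03125.

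Length decides which sequences the lists can hold. As placed here, reads of 36 nt or less were listed only where they matched a gene exactly, whereas reads of 37 nt and longer were also listed with differences. The placement itself took only exact matches up to 35 nt and at most 4 differences in longer reads. Reads of up to 35 nt also decided the rebuilt bases that they covered. A short serine 3′ fragment that differs from the gene at base 50 or 67 would therefore not be listed. How much of the low yield, the few short reads and the side of the long-arm fragments this accounts for was not tested.

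In reads of 37 nt and longer, 2 bases of the serine tRNAs often differed from the gene, with base 50 of Ser-TGA not assessed. Base 50, in the variable arm, differed in 98.4% of 494 Ser-AGA reads (95% Wilson interval 96.8 to 99.2%), in 98.9% of 280 reads that Ser-AGA and Ser-CGA share, save a few of Ser-CGA alone, and in 91.5% of 47 Ser-GCT reads. In Ser-AGA the substitution was C50T in 393 reads, C50A in 52 and C50G in 31, and the base was missing in 10. Leu-CAG had the same pattern at base 51, also 32 bases before the end of its gene, where 94.6% of 74 reads differed and C51T made up 49. In mammals, 3-methylcytosine is known in the variable arm of serine and leucine tRNAs, but no modification was measured here.

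Base 67 of the serine tRNAs, 15 bases before the last, corresponds to position 58 of the T loop, where 1-methyladenosine is common in eukaryotic tRNAs. It differed in 64.4% of 492 Ser-AGA reads, 62.5% of the same 280 shared reads, 32.6% of 46 Ser-GCT reads and 96.2% of 26 Ser-TGA reads. Ser-AGA was read as A67T in 229, A67G in 83 and A67C in 5, whereas Ser-TGA was read as A67G in 19 and A67T in 6. Among the leucine tRNAs, the base differed in 77.8% of 36 Leu-AAG reads and 26.0% of 73 Leu-CAG reads. In SeC-TCA it differed in 0 of 36 reads, which allows a share of up to 8.33%.

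This adenosine was covered by at least 20 such reads in 24 isoacceptors, and 6 of 7 long-arm isoacceptors and 1 of 17 others differed from the gene in at least 10% of reads. The exception among the others was Gly-GCC, with 95.6% of 7851 reads, and Asp-GTC differed in 0 of 973. All 16 others besides Gly-GCC stood at exactly 0, and whether reads with a difference at this base were left out of their lists when the authors mapped them is not known, which limits what the contrast means. Over all bases covered by 20 such reads, differences reached 10% at 11 of 315 long-arm bases and at 5 of 1302 others, against a background of 0.989%. Some of these sites differed only in mutant libraries, mostly with A read as C. Gln-CTG base 7 did so in 10.1% to 17.0% of reads by library and Gly-TCC base 24 in 10.4% to 18.1%. Leu-TAA base 36 did so in 3 of 9 mutant control reads. How much the misreading described below adds to these counts was not tested. The long-arm count also holds the sites of the Ser-CGA entry, whose reads nearly all match Ser-AGA genes too. Bases of Ser-AGA and Ser-CGA ahead of base 50 were not scanned, for want of exactly matched reads or of 20 longer reads there. This scan was made after the reads had been seen.

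Both differences were present in all 6 libraries. With Ser-AGA, Ser-CGA and Ser-GCT together, base 50 differed in 98.8%, 98.3%, 98.4%, 99.3%, 95.5% and 90% of reads, the last on 20 reads. Base 67 differed in 65.5%, 62%, 65.6%, 61.2%, 57.7% and 60%. At base 67 the 3 heterozygote values lay above the 3 mutant values, while the counting intervals overlapped (54.8 to 74.8% and 55.6 to 66.5% in the controls), and the difference between genotypes was not tested. Of 818 reads that covered both bases, 500 differed at both, 306 at base 50 alone, 7 at base 67 alone and 5 at neither. The 3 readings of the 44-nt Ser-AGA fragment shown above carry C50T with A67T (77 reads), C50T with A67G (32 reads) and C50T alone (31 reads). In the 6 libraries the first of these was read 5, 16, 15, 31, 8 and 2 times.

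**Figure D4:**
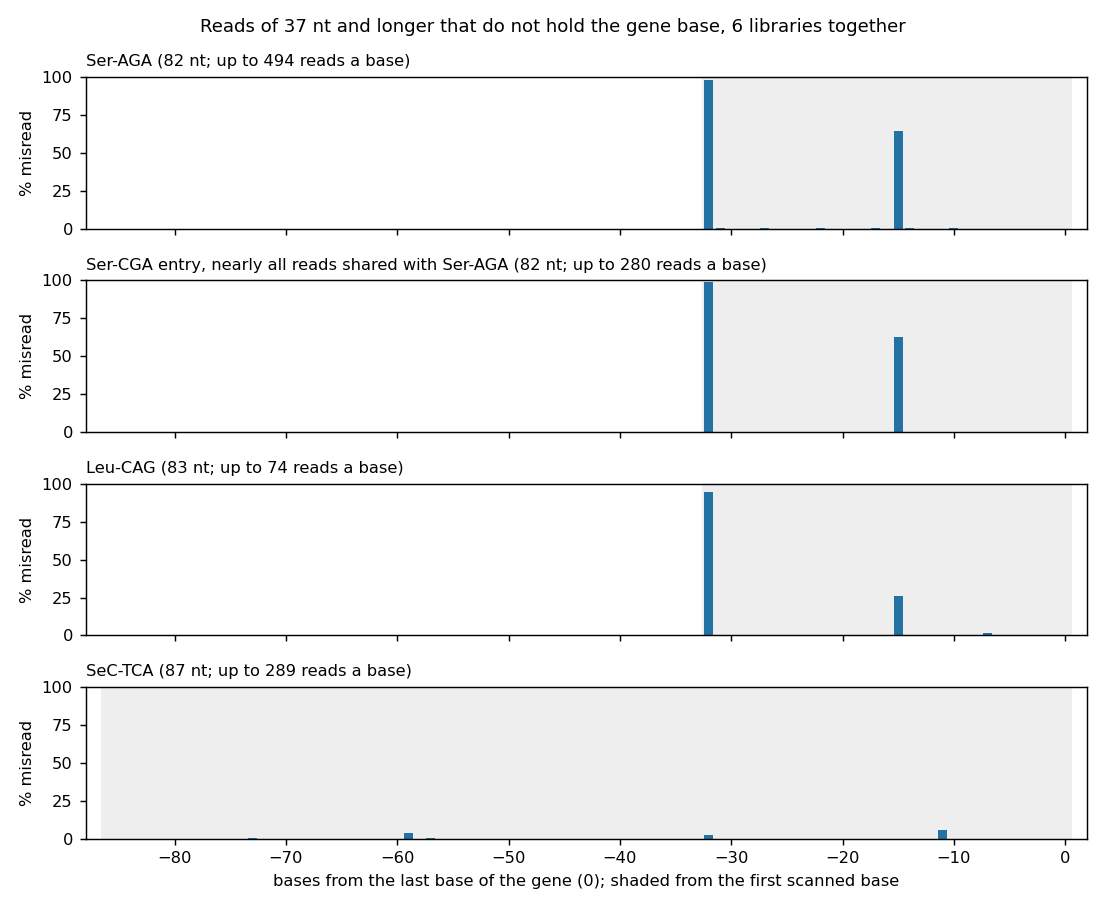
Percent of reads of 37 nt and longer that do not hold the gene's base, by distance from the last base of the gene, over 6 libraries; shading runs from the first scanned base. Ser-AGA, the reads it shares with Ser-CGA, and Leu-CAG differ 32 bases before the end in 94.6% to 98.9% of reads and 15 bases before it in 26.0% to 64.4%, and no SeC-TCA base reaches 10%.

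The 2 gene forms of the Ser-AGA and Ser-CGA family, which differ at base 77 on the 3′ strand of the acceptor stem (A77G), were compared after their values were seen. The first form is held by 5 Ser-AGA genes and the second by 3 Ser-AGA and 4 Ser-CGA genes. Base 77 is not their only difference. Of the second form, 1 Ser-AGA gene and the 4 Ser-CGA genes hold T at base 16, where the other genes hold C. The Ser-CGA genes also differ at base 34, in the anticodon. The first gave 42, 90, 80, 198, 73 and 14 reads and the second 32, 72, 43, 100, 30 and 5. Per gene the mean log2 ratio of the first to the second was 1.38 ± 0.47 (SD, n = 6 libraries), higher in 6 of 6 libraries (exact sign-flip permutation p = 0.03125). The first form reached the last annotated base in 13.1% of its 497 fragments, the Ser-AGA entry given above, and the second in 37.6% of 282. By library the second was higher by 15.8 ± 22.0 points in 5 of 6 libraries, with an exact permutation p of 0.1875. The exception was mutant recovery, with 4 of 14 against 0 of 5, and without it the difference was 24.7 points.

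Genotype and treatment were compared with edgeR over all tRNA features. Of the members, SeC-TCA and Ser-AGA passed the filter on low counts and the other isoacceptors did not. Of 23 features tested, 4 were called between genotypes at an adjusted p under 0.05 (17.4%; 30.4% by DESeq2), 6 for heat shock (26.1%) and 0 for recovery (0%, with 0 at an unadjusted p under 0.05 and 0 by DESeq2). In the main edgeR fit (TMM scaling, each read counted once, all 6 libraries), neither long-arm isoacceptor was called in any of the 3 comparisons. DESeq2 called SeC-TCA between genotypes. Without the filter, edgeR called 8, 6 and 2 of 50 features for genotype, heat shock and recovery (16%, 12% and 4%), and of the 11 long-arm features among them it called 0 in each comparison, with 2, 0 and 0 at an unadjusted p under 0.05.

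Ser-AGA did not pass the test in any comparison. Its log2 difference, mutant minus heterozygote, was 0.26 ± 0.28 (SE; edgeR, adjusted p = 0.484), and the single-library ratios of its share were 1.01, 1.04 and 1.02 in control, heat shock and recovery. These ratios hold reads of Ser-AGA alone. For the 284 reads shared with Ser-CGA they were 0.642 (interval 0.430 to 0.979), 0.512 (0.323 to 0.795) and 0.728 (0.254 to 1.71). With Ser-AGA, Ser-CGA and shared reads together they were 0.859, 0.832 and 0.915, and each interval included 1. All serine reads gave 0.706 (0.565 to 0.888), 0.835 (0.662 to 1.05) and 0.888 (0.558 to 1.36). For heat shock the log2 difference of Ser-AGA was -0.48 ± 0.32 (edgeR, adjusted p = 0.270) and for recovery -0.47 ± 0.35 (adjusted p = 0.524), where the median over all features was -0.31 and -0.25. All serine reads together were fewer after heat shock in both single-library comparisons, at 0.603 of the control share in heterozygotes (interval 0.472 to 0.772) and 0.713 in mutants (0.577 to 0.877). All these intervals cover counting error only and compare libraries, not genotypes or conditions.

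SeC-TCA had a log2 difference, mutant minus heterozygote, of -0.998 ± 0.363 (SE), which missed the threshold in edgeR (adjusted p = 0.0773). It passed with DESeq2's size factors in edgeR (-1.15, adjusted p = 0.00340), with DESeq2 itself (-1.16, adjusted p = 0.0177) and without either control library (-1.79 and -1.83 without the heterozygote and the mutant control, adjusted p = 0.000435 and 0.00491). In edgeR it also passed when the highest listed count of each sequence was used with nothing taken off (-0.954, adjusted p = 0.0230). It did not pass with total-count scaling (adjusted p = 0.139), without the filter (0.126) or without 51-nt reads (0.0874). Nor did it pass without heterozygote recovery (adjusted p = 0.415), mutant recovery (0.168), mutant heat shock (-0.20, 0.798) or heterozygote heat shock (-0.38, 0.712). By single libraries, the mutant share was 0.871 of the heterozygote share in control (interval 0.631 to 1.22), 0.235 after heat shock (0.155 to 0.347) and 0.336 in recovery (0.158 to 0.634). The control interval included 1 and the others did not, and whether the genotype ratio differs between conditions was not tested. For heat shock the log2 difference was -0.68 ± 0.42 (adjusted p = 0.226), or -1.47 with an adjusted p of 0.0124 without heterozygote control and 0.28 without mutant control, and for recovery -0.25 ± 0.45 (adjusted p = 0.759).

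The sides of the SeC tRNA moved differently in single libraries. Its 5′ fragments stood at 13.7, 24.3, 24.2, 12.9, 7.74 and 9.78 reads per 10000 tRNA reads. They were higher after heat shock in the heterozygote, at 1.78 times control (interval 1.11 to 2.98), and lower in the mutant, at 0.600 times (0.380 to 0.923). The other SeC fragments stood at 17.6, 10.6, 33.7, 14.2, 0.534 and 9.78. In mutant heat shock they came to 2 reads, against 49 in heterozygote heat shock, a ratio of 0.0502 (0.00591 to 0.191). These values were chosen after they were seen, and with 1 library per group they have no replicate check.

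A base-reading difference ran with genotype. In 51-nt reads, A of the gene was read as C in 0.149%, 0.280% and 0.243% of positions in heterozygote libraries and in 3.06%, 2.98% and 1.63% in mutant libraries. By its construction, exact matching removes more short reads in the latter, of all tRNAs. Of the 275 SeC fragments that are not 5′, 239 were 36 nt or less (86.9%). Among all SeC reads this share was 46.4%, and among reads of other tRNAs 87.6%. With counts corrected for this rate, the SeC genotype difference was -1.07 (edgeR, adjusted p = 0.00707), slightly larger than the -0.998 without correction. How much of the SeC values by library the misreading accounts for was not tested.

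**Figure D5:**
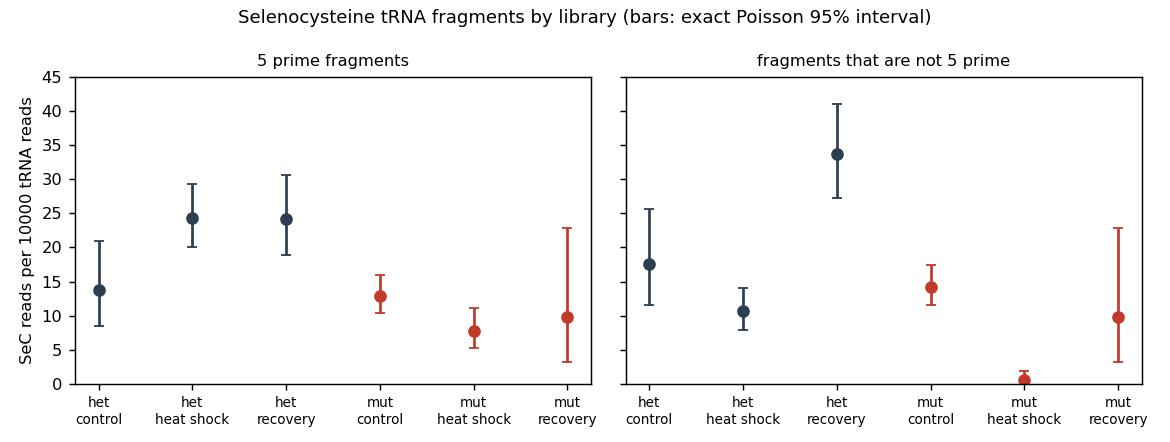
SeC-TCA reads per 10000 tRNA reads in each library for 5′ fragments and for fragments that are not 5′; points are single libraries and bars exact Poisson 95% intervals, which cover counting error only. The 5′ value is highest in heterozygote heat shock (24.3) and recovery (24.2), and the other fragments range from 0.534 in mutant heat shock to 33.7 in heterozygote recovery.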

How the data were processed

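Members and lists were chosen with earlier results of these data known. The authors' deposited values are raw counts, 1 per sequence and gene it matched, per the file headers. RNA of 25 to 70 nt from 200 µg total RNA depleted of 2S rRNA was sequenced, per the labels' protocols. Bowtie and dm3 are named in the submitters' processing notes, with versions not given in the sources used here. RefSeq names matched 288 of 297 genes, from another build, so no coordinates are given.

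Each read was counted once per library: sequences listed at several genes once, less longer reads listed in shortened form at genes that differ near the read's end. Isoacceptors, with shared sequences as features of their own, went into edgeR 4.0.16 under R 4.3.3 (TMM, glmQLFit and glmQLFTest, Benjamini-Hochberg over all features, 2-sided, additive genotype and condition, filter at the CPM equal to 10 counts in the smallest library, reached by 3 libraries or more). The additive fit leaves 2 residual degrees of freedom, with spread pooled over features. The SE given with edgeR values was back-calculated as the absolute log2 difference over the square root of the test's F statistic. DESeq2 1.42.0 was the other tool. Gene sequences were joined from overlapping reads, and 99.9% to 100% of reads were placed by edit distance. Intervals of shares are 95% Wilson intervals, and 3 counts set the limit for a count of 0. Reads carry no molecular identifiers, so intervals cover counting error only. Library ratios have exact conditional intervals. Single fragments were named by one rule: for each feature, the commonest 5′ fragment and the commonest other fragment with at least 20 reads over the 6 libraries; others that are named were chosen after their values were seen. Placing reads on a known sequence, counting each read once and the edgeR genotype fit were tested on simulated data. Python 3.11.15 with scipy 1.17.1 was used.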

Additional observations from a re-analysis of the deposited data

Results flagged for a closer look

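The 5′ fragments of SeC-TCA moved in opposite directions after heat shock in the 2 genotypes. The log2 ratio of heat shock to control was positive in the heterozygote (112 against 21 reads, 1.78 times per 10000 tRNA reads) and negative in the mutant (29 against 87 reads, 0.600 times), a gap of 1.56 on the log2 scale. Each ratio compares a single pair of libraries, and the difference between genotypes was not tested.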

How the results depend on the processing

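No paired analysis was possible because each group has 1 library and the labels give no replicate numbers to block on; the paired tests given pair values of 1 library, or genotypes within a condition. Features called between genotypes numbered 4, and 7 with DESeq2's size factors, 7 with DESeq2, 8 without the filter, 7 with every listed count, 1 without 51-nt reads, 7 after correction for C read at A and 2 when summed by amino acid (added after the data were seen); they were 1 to 6 with a library left out (2 without heterozygote heat shock, 1 without heterozygote recovery or mutant heat shock). For heat shock 6 were called, 0 with total-count scaling and 0 to 9 with a library left out (9 without heterozygote control, 0 without heterozygote recovery, 3 without mutant recovery and 1 without any other). For recovery 0 were called, 2 without the filter and 0 to 1 with a library left out (1 without mutant recovery). The cause of these changes was not tested. SeC-TCA changed direction for heat shock without mutant control (0.28) or mutant heat shock (0.03), and for recovery with total-count scaling (0.16) or without mutant control (0.90), over ranges of -1.57 to 0.28 and -1.08 to 0.90 with a library left out; none of the values that changed direction was called. With a library left out, 5 libraries cannot give an exact p below 0.0625; the directions held, with a 5′ share difference of -71.6 to -68.5 points, a 3′ share difference of 17.6 to 23.0, a 51-nt difference of -4.17 to -3.27, a log2 yield ratio of -4.35 to -4.08, a log2 ratio of serine to leucine of 1.76 to 2.14 and of the first to the second Ser-AGA form of 1.26 to 1.49. The anticodon-loop end share differed by -10.9 points without 51-nt reads. Leucine isoacceptors rest on 23 to 94 reads each, which limits every value given for them.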
